A study of Mus musculus with 19 samples.

Results

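The 12 immunoprecipitate libraries collected in the middle of the dark period and in the middle of the light period were set against each other as one comparison of 6 with 6. The mid-dark arm held the 3 biological replicates each of Zeitgeber time (ZT, hours after lights on) 16 and 20, and the mid-light arm the 3 each of ZT4 and ZT8. These were 12 of the 19 libraries of the series. Libraries were placed in the arms by their labelled collection time. The 3 libraries each of ZT0 and ZT12 and the single pooled input (spinal cord homogenate before precipitation) stayed out of the comparison and are given only as levels beside it.

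All 12 libraries came from wild-type (WT) male mice, 10 weeks old, kept under 12 h of light and 12 h of darkness. They carried ChAT-Cre;RiboTag fx/+ on a C57BL/6J background, and each library came from 1 spinal cord. In RiboTag mice, Cre recombinase places a hemagglutinin (HA) tag on the ribosomal protein RPL22, and precipitation of the tag from tissue homogenate recovers mRNA bound to tagged ribosomes. ChAT-Cre confines the tag to cells that express choline acetyltransferase, which in the spinal cord are mainly motor neurons and a smaller number of cholinergic interneurons and preganglionic neurons. Both arms carried the same alleles, and mRNA of untagged cells is carried along in such precipitates to a small degree. Because the level of ribosome-bound mRNA is measured relative to the whole library, fewer cells of a type and less mRNA per cell cannot be told apart. The input was pooled, so a change in mRNA level and a change in its binding to ribosomes cannot be told apart either.

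Mice are nocturnal, so that the mid-dark arm falls in their active period and the mid-light arm in their rest period. The circadian clock of each cell is a loop in which CLOCK and BMAL1 (encoded by Arntl) bind E-boxes and activate the Period, Cryptochrome, REV-ERB and PAR bZIP genes, whose products feed back on the loop. Feeding, locomotor activity, body temperature and glucocorticoids also follow the light cycle and reach the cells of the spinal cord.

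Depth ranged widely within both arms. Total counts ranged from 6651455 to 22406850 in mid-light and from 6302140 to 19221319 in mid-dark (exact two-sided permutation test over 924 splits, p = 0.526, n = 6 per arm). Between 16471 and 18628 genes had a count in the mid-light libraries and between 17373 and 19624 in the mid-dark libraries (exact permutation test, p = 0.229). Pairs of the 12 libraries correlated across genes with r between 0.936 and 0.983. The common biological coefficient of variation (edgeR) was 19.2%. Levels below are CPM, counts scaled to library size with TMM factors, and fold changes are log2 of mid-dark over mid-light with their standard error (SE). Levels of single genes in the arms were scaled over the 12 libraries. Levels at ZT0, at ZT12 and in the input, and all summed levels of lists, were scaled over all 19 libraries.

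Of 14176 genes tested, 2406 (17.0%) passed a false discovery rate (FDR) of 0.05 (quasi-likelihood F-test of edgeR, Benjamini-Hochberg adjustment over all genes). Of these, 1226 (8.65%) were higher and 1180 (8.32%) lower in mid-dark, while the median fold change of all genes was 0.00. The p-values measure the spread between these mice. Most differences were small. The median was 0.51 among the higher and -0.44 among the lower genes, and 128 higher but only 31 lower genes exceeded 1 on the log2 scale. The lowest FDR was 0.00989, and 4565 genes had an unadjusted p under 0.05. The ranges of the 2 arms did not overlap for 508 genes (3.58%), of which 269 (1.90%) were higher and 239 (1.69%) lower in mid-dark.

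Leaving out ZT16 replicate 1, ZT16 replicate 2 or ZT8 replicate 3 reduced the calls to 456 higher and 428 lower, 435 and 452, and 426 and 430 genes, respectively. Without ZT8 replicate 2, ZT4 replicate 2 or ZT20 replicate 1 they were 624 and 570, 643 and 696, and 684 and 630. Leaving out all 4 replicate 2 libraries left 0 calls by edgeR, with 1885 genes at an unadjusted p under 0.05. Throughout the text, a gene that lost its call when single libraries were left out is given with the number of the 12 such fits that called it. Of 124 named genes with a call, 77 were called in all 12 fits.

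Among the 1226 genes higher in mid-dark, ZT8 replicate 2 was the lowest of the 12 libraries for 822 (67.0%) and ZT16 replicate 2 the highest for 797 (65.0%). Among the 1180 lower genes, ZT8 replicate 2 was the highest for 842 (71.4%) and ZT16 replicate 2 the lowest for 808 (68.5%). At the inner edge, ZT20 replicate 3 was the mid-dark library closest to mid-light for 677 (55.2%) of the higher and 561 (47.5%) of the lower genes. On the mid-light side, ZT4 replicate 1 was closest to mid-dark for 459 (37.4%) and 564 (47.8%).

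**Figure D1:**
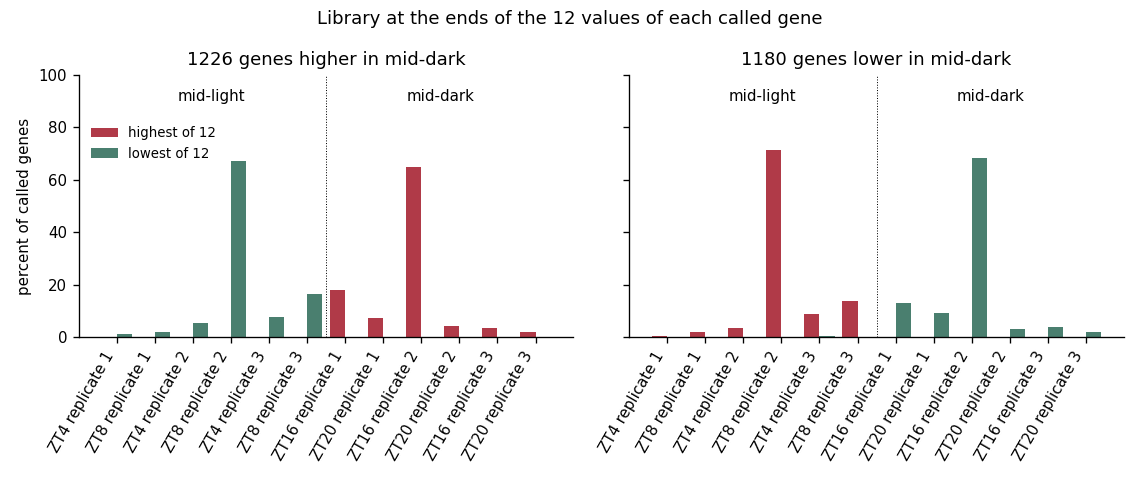
Bars give, for each of the 12 libraries on the horizontal axis, the percent of called genes for which it held the highest or the lowest CPM of the 12, for genes higher (left) and lower (right) in mid-dark. ZT8 replicate 2 and ZT16 replicate 2 stood at the ends for 65.0% to 71.4% of the genes.

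Within an arm the 2 collection times were not distinguished. ZT16 and ZT20 differed at 0 genes (edgeR, lowest FDR 1.00, 376 genes at an unadjusted p under 0.05, and 0 genes by DESeq2). ZT4 and ZT8 also differed at 0 genes (lowest FDR 0.939, 634 genes at an unadjusted p under 0.05, and 1 gene by DESeq2). Among the called genes the mean was farther from mid-light at ZT16 than at ZT20 for 1099 of 1226 higher and 1030 of 1180 lower genes, and farther from mid-dark at ZT8 than at ZT4 for 1059 and 1053. These genes share the same libraries, with replicate 2 of ZT16 and of ZT8 at the ends for most of them, and are not independent counts. Over all genes the median log2 difference was 0.0004 for ZT20 minus ZT16 and -0.0014 for ZT8 minus ZT4. Whether the 12-h pairs ZT20 against ZT8 and ZT16 against ZT4 differed was tested as an interaction, and 0 genes passed (edgeR, lowest FDR 0.474).

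The identity of the precipitated cells was checked against marker genes. The summed level of 12 cholinergic and motor neuron genes was 5274 to 6145 CPM in mid-light and 5582 to 6110 CPM in mid-dark, against 564 CPM in the input. The 8 oligodendrocyte markers summed to 1541 to 2034 CPM in mid-light and 1797 to 2938 CPM in mid-dark (22822 in the input), and 2 of them rose (Mbp, myelin basic protein, log2 fold change 0.41 ± 0.09, FDR 0.0124 by edgeR, and Mal, 0.99 ± 0.21, FDR 0.0120). The 7 astrocyte markers summed to 569 to 740 CPM in mid-light and 776 to 868 CPM in mid-dark (4535 in the input), so that the arms did not overlap. Of them Aldoc (aldolase C) and Gfap (the astrocyte intermediate filament) rose, by 0.31 ± 0.07 (edgeR FDR 0.0163) and 0.39 ± 0.11 (FDR 0.0234), while Aqp4, Slc1a2, Slc1a3, Aldh1l1 and Gja1 did not pass. Gfap was called in 10 of 12 fits, highest FDR 0.0595 without ZT4 replicate 2.

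Microglial and endothelial markers were scarce, with sums of 8.96 to 14.7 CPM and 9.27 to 15.2 CPM in mid-light and 9.03 to 14.1 CPM and 7.61 to 16.0 CPM in mid-dark, and 0 of 5 and 0 of 4 members passed (edgeR). At an unadjusted p under 0.05 there were 2 and 0 members. One erythrocyte gene of 5 fell (Hbb-bt, beta globin, -0.66 ± 0.20, edgeR FDR 0.0315, called in 4 of 12 fits, highest FDR 0.0819 without ZT8 replicate 3), 1 Schwann cell gene of 4 rose (Pmp22, peripheral myelin protein, 0.34 ± 0.08, FDR 0.0155) and 1 excitatory neuron gene of 3 fell (Tac1, the substance P precursor, -0.72 ± 0.20, FDR 0.0252, called in 9 of 12 fits, highest FDR 0.0656 without ZT4 replicate 2). None of 4 inhibitory neuron, 4 skeletal muscle and 2 ependymal markers passed (edgeR, with 1, 0 and 0 at an unadjusted p under 0.05), and the muscle genes Acta1, Ckm and Mylpf were each at 0 in at least 1 library. No astrocyte or oligodendrocyte marker was at 0 in any of the 12 libraries. When the astrocyte marker sum was added to the model as a covariate, 0 genes were called and 592 had an unadjusted p under 0.05, and with the oligodendrocyte sum 1220 higher and 1205 lower genes were called. The astrocyte covariate was chosen after the data were seen. Because the astrocyte sums of the arms did not overlap, that sum and the arm cannot be told apart in this model.

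The first question was how the clock itself differed between the arms. Of 23 clock genes tested, 2 rose and 3 fell in mid-dark (5 of 23 called, against 17.0% of all genes), and their median fold change was -0.04. Per2 (chromosome 1, 91415977 to 91459351, GRCm38.p6), a core repressor of the loop, was at 1.34, 2.62 and 3.08 CPM in mid-light and 2.50, 4.64 and 5.91 CPM in mid-dark (lowest, median and highest of 6). ZT20 replicate 1 was the mid-dark library that lay within the mid-light range, below all 3 ZT8 libraries. The log2 fold change was 0.83 ± 0.25 (SE, edgeR FDR 0.0340), and Per2 was called in 4 of 12 fits, highest FDR 0.0789 without ZT16 replicate 2.

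Nfil3, which encodes a repressor of D-box genes, was at 3.08, 4.94 and 7.27 CPM in mid-light and 5.47, 7.56 and 9.38 CPM in mid-dark (0.67 ± 0.22, edgeR FDR 0.0431, called in 5 of 12 fits, highest FDR 0.108 without ZT16 replicate 1). Csnk1d, a kinase that phosphorylates PER proteins, was the clock-related gene whose arms did not overlap. Its level was 328, 365 and 413 CPM in mid-light and 274, 300.2 and 308 CPM in mid-dark (-0.31 ± 0.07, edgeR FDR 0.0138, called in all 12 fits). Rora, an activator of Arntl, fell by 0.33 ± 0.09 on the log2 scale (FDR 0.0263, called in 6 of 12 fits, highest FDR 0.0684 without ZT8 replicate 3), and Bhlhe41, an E-box repressor, fell by 0.36 ± 0.10 (FDR 0.0264, called in 7 of 12 fits, highest FDR 0.0672 without ZT16 replicate 2).

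Arntl, Per1, Nr1d1 and Dbp did not pass. Arntl was at 6.05 ± 0.857 CPM in mid-light and 7.39 ± 1.02 CPM in mid-dark (SD, n = 6, 0.30 ± 0.15, edgeR FDR 0.192). Per1 differed by 0.28 ± 0.15 (FDR 0.207), Nr1d1 (REV-ERB alpha) by 0.03 ± 0.14 (FDR 0.928) and Dbp, a D-box activator, by -0.04 ± 0.15 (FDR 0.890). Dbp was at 14.2 ± 2.21 CPM in mid-light and 13.8 ± 2.62 CPM in mid-dark, while the means of the time points outside the comparison were 10.4 CPM at ZT0 and 22.7 CPM at ZT12. A gene that peaks near ZT0 or ZT12 can have similar levels in both arms. A gene that did not pass in this comparison therefore need not be constant over the day.

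**Figure D2:**
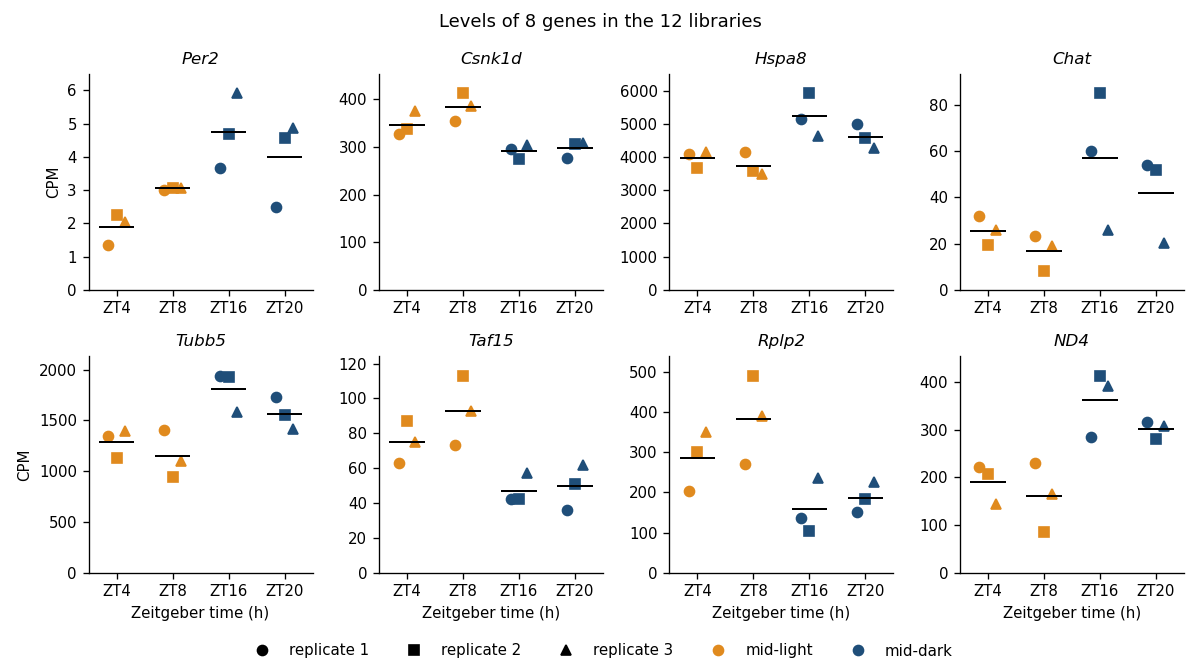
CPM (vertical axes, from 0) of 8 genes in the 12 libraries by Zeitgeber time, with a symbol for each replicate number, orange for mid-light, blue for mid-dark and a bar for the mean of a time point. Arms did not overlap for Csnk1d, Hspa8, Tubb5, Taf15 and ND4 and overlapped for Per2, Chat and Rplp2.

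Promoter sequences of the called clock and temperature genes were read from RefSeq (GRCm38.p6, 250 bases before to 50 after the transcription start) and searched on both strands for CACGTG (the E-box), TTATGTAA or TTACGTAA (the D-box), AGGTCA (the core bound by ROR and REV-ERB receptors), GAANNTTC (the core of the heat shock element) and TGACGTCA (the cAMP response element). Of 9 called members 5 had an entry, and 3 of these held a motif. They are shown so that the letters can be read beside the fold changes, with matches in capitals. Nfil3 (higher in mid-dark; chr13:52980990-52981289, minus strand) holds an AGGTCA on the opposite strand that begins 12 bases before the start, Bhlhe41 (lower; chr6:145865371-145865670, minus strand) an E-box 153 bases before it, and Hspe1 (lower; chr1:55087898-55088197, plus strand) a heat shock core 84 bases and an AGGTCA 47 bases before it.
Nfil3: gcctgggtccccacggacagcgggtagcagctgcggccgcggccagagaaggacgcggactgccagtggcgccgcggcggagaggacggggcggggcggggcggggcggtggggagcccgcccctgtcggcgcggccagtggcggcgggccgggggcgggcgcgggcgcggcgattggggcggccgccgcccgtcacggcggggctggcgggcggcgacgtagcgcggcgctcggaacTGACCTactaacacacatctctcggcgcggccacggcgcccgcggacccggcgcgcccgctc
Bhlhe41: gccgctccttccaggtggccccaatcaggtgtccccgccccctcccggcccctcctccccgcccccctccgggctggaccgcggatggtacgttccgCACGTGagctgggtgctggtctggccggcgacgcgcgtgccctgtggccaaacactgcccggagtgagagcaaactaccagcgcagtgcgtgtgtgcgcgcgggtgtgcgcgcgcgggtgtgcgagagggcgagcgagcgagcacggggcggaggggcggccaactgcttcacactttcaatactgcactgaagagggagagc
Hspe1: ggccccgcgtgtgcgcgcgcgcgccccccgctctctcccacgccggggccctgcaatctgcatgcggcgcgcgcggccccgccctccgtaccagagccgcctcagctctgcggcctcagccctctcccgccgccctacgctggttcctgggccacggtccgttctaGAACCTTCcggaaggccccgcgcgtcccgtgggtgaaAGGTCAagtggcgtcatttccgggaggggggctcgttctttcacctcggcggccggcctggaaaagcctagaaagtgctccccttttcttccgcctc

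The promoters of Rora and Dnajb1 held none of these letters in the window, and Per2, Csnk1d, Hspa8 and Hsf1 had no entry. Of 32851 promoter entries, 7.15% held an E-box, 1.06% a D-box, 16.3% an AGGTCA, 7.86% a heat shock core and 1.79% a cAMP response element. Among the promoters of genes tested, 9.61% held an E-box, beside 10.5% of those of genes called higher and 10.7% of those of genes called lower. An AGGTCA was held by 12.2% of the promoters of genes tested, 9.61% of those called higher and 12.6% of those called lower, and a heat shock core by 5.57%, 5.62% and 6.06%. Per1, Cry1, Ciart, Tef, Hsph1, Hspd1 and Hsf2, which were not called, also had a promoter entry with an E-box. An AGGTCA was held by entries of the uncalled Arntl, Clock, Per1, Nr1d2, Hspa1a, Dnaja1 and Hspd1. A heat shock core was held by entries of the uncalled Hspa1a, Hspa1b, Hsph1, Dnaja1, Hspb1, Hspd1, Bag3 and Chordc1.

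Body temperature of mice is higher in the active period, and genes that respond to it form the next group. Of 24 temperature genes, 3 rose and 1 fell, which is 16.7% beside 17.0% of all genes called, and their median fold change was 0.02. Hspa8 (chromosome 9, 40801276 to 40805202), the constitutive HSP70 chaperone, was at 3493, 3897 and 4162 CPM in mid-light and 4283, 4811 and 5926 CPM in mid-dark. Every mid-dark library exceeded every mid-light library (0.35 ± 0.08, edgeR FDR 0.0138, called in all 12 fits). Its co-chaperone gene Dnajb1 was at 35.4, 45.2 and 55.6 CPM in mid-light and 49.2, 68.3 and 76.6 CPM in mid-dark and rose (0.47 ± 0.12, FDR 0.0205, called in 9 of 12 fits, highest FDR 0.0570 without ZT16 replicate 2).

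Hsf1, the transcription factor of the heat shock response, rose by 0.51 ± 0.16 (edgeR FDR 0.0351, called in 6 of 12 fits, highest FDR 0.0889 without ZT16 replicate 2). Hspe1, the mitochondrial HSP10, fell by 0.48 ± 0.14 (FDR 0.0297, called in 5 of 12 fits, highest FDR 0.0755 without ZT16 replicate 1). Cirbp, a cold-inducible RNA-binding protein gene, was at 88.9, 96.3 and 122 CPM in mid-light and 64.3, 74.4 and 104 CPM in mid-dark (-0.34 ± 0.12, FDR 0.0567), with means of 62.9 CPM at ZT0 and 112 CPM at ZT12. It did not pass.

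Immediate early genes respond to neuronal activity. Of 24 tested, 2 rose and 3 fell, which is 20.8% beside 17.0% of all genes called, with a median fold change of -0.17. Arc, which acts at synapses, rose by 0.67 ± 0.18 (edgeR FDR 0.0220, called in 8 of 12 fits, highest FDR 0.0649 without ZT16 replicate 2) and Jun by 0.35 ± 0.12 (FDR 0.0471, called in 4 of 12 fits, highest FDR 0.132 without ZT16 replicate 1). Jund fell by 0.44 ± 0.09 (FDR 0.0120, called in all 12 fits), with 252 ± 28.3 CPM in mid-light and 186 ± 19.7 CPM in mid-dark (SD, n = 6 per arm). Btg2, an antiproliferative gene, fell by 0.87 ± 0.25 (FDR 0.0294, called in 6 of 12 fits, highest FDR 0.0821 without ZT8 replicate 2), and Gadd45b, a stress-response gene, by 0.36 ± 0.11 (FDR 0.0303, called in 5 of 12 fits, highest FDR 0.0780 without ZT16 replicate 2). Fos did not pass (0.29 ± 0.23, FDR 0.420).

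Of 16 glucocorticoid-responsive genes, 1 fell and 0 rose (edgeR), which is 6.25% beside 17.0% of all genes called, and their median was 0.03. The gene that fell was Tsc22d3, which encodes the glucocorticoid-induced leucine zipper protein. It was at 467, 511 and 639.8 CPM in mid-light and 335, 439 and 466 CPM in mid-dark, without overlap (-0.32 ± 0.09, edgeR FDR 0.0234, called in 8 of 12 fits, highest FDR 0.0555 without ZT16 replicate 1). Fkbp5, a chaperone of the glucocorticoid receptor, was at 110.4 ± 6.59 CPM in mid-light and 118 ± 1.59 CPM in mid-dark (SD, n = 6, 0.10 ± 0.06, FDR 0.303).

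Genes of acetylcholine synthesis and transport define the tagged cells. Of 12 cholinergic and motor neuron genes, 4 rose (33.3%, against 8.65% of all genes) and 0 fell, with a median of 0.18. Chat (chromosome 14, 32408203 to 32465909), the enzyme that makes acetylcholine, was at 8.31, 21.3 and 31.8 CPM in mid-light and 20.3, 52.9 and 85.1 CPM in mid-dark. ZT8 replicate 2 held the lowest value, below the 13.3 CPM of the input, and the mid-dark libraries of replicate 3 (25.8 and 20.3 CPM) lay within the mid-light range. The log2 fold change was 1.23 ± 0.31 (edgeR FDR 0.0179, called in 11 of 12 fits, highest FDR 0.0513 without ZT16 replicate 2).

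Slc18a3, the vesicular acetylcholine transporter, lies inside the Chat locus on the same strand, so that reads of the pair cannot always be told apart, and rose by 0.72 ± 0.17 (edgeR FDR 0.0162). Its levels were 244, 392 and 536 CPM in mid-light and 455, 663 and 835 CPM in mid-dark. Slc5a7, the choline transporter, rose by 0.41 ± 0.12 (FDR 0.0294, called in 4 of 12 fits, highest FDR 0.0812 without ZT16 replicate 2) and Isl1, a motor neuron transcription factor, by 0.49 ± 0.15 (FDR 0.0391, called in 4 of 12 fits, highest FDR 0.109 without ZT16 replicate 2).

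The other 8 genes did not pass. Ache, acetylcholinesterase, was at 630.2 ± 146 CPM in mid-light and 847 ± 160.1 CPM in mid-dark (SD, n = 6) and missed the threshold (0.43 ± 0.15, edgeR FDR 0.0521). Prph, a neurofilament-related protein of motor neurons, differed by -0.13 ± 0.08 (FDR 0.302). The summed level of the list, given above, overlapped between the arms.

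Tubulins and neurofilaments form the cytoskeleton of the long motor axon, and 6 of 16 tubulin and neurofilament genes rose (37.5%, against 8.65% of all genes) while 0 fell, with a median of 0.20. Their summed level was 44558 to 53038 CPM in mid-light and 51788 to 61681 CPM in mid-dark, and the arms overlapped because ZT4 replicate 3 lay above ZT16 and ZT20 replicate 3. As unscaled shares of library counts, 4.38% to 4.99% and 5.21% to 6.06%, they did not overlap. Tubb5 (chromosome 17, 35833920 to 35838301), a beta tubulin, was at 945, 1238 and 1404 CPM in mid-light and 1412, 1660 and 1937 CPM in mid-dark, without overlap (0.47 ± 0.10, edgeR FDR 0.0137). Nefm, the medium neurofilament chain, was at 8464, 9813 and 10999 CPM in mid-light and 11030, 12084 and 14439 CPM in mid-dark, also without overlap (0.34 ± 0.08, FDR 0.0164). For either gene the lowest mid-dark library lay just above the highest mid-light library.

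Tubb4a rose by 0.51 ± 0.12 (edgeR FDR 0.0145), as did the light neurofilament chain Nefl (0.28 ± 0.07, FDR 0.0194, called in 10 of 12 fits, highest FDR 0.0566 without ZT8 replicate 3), Tubb3 (0.25 ± 0.07, FDR 0.0243, called in 7 of 12 fits, highest FDR 0.0699 without ZT16 replicate 1) and Tuba1a (0.21 ± 0.06, FDR 0.0293, called in 6 of 12 fits, highest FDR 0.0858 without ZT16 replicate 1). Reads of the near-identical tubulin isotypes are divided between them by a model, so single isotypes are less certain than their sum. Among 9 genes that the study names, 5 rose (55.6%, against 8.65% of all genes) and 0 fell. All but Kif3a, named there from splicing in other mice, were named from these same libraries, so this is not independent evidence. Of the genes without a call, 1 lay lower in mid-dark without overlap of the arms, as did 1.69% of all genes. Besides Nefl and Tuba1a the genes that rose were Sarm1, an axon degeneration enzyme (0.37 ± 0.08, FDR 0.0125), Atp8a2, a phospholipid flippase (0.62 ± 0.16, FDR 0.0202, called in 9 of 12 fits, highest FDR 0.0578 without ZT16 replicate 2), and Herc1, a ubiquitin ligase (0.24 ± 0.08, FDR 0.0447, called in 3 of 12 fits, highest FDR 0.116 without ZT20 replicate 1).

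Of 14 genes of RNA-binding proteins, mostly linked to amyotrophic lateral sclerosis (ALS), 2 rose and 4 fell (14.3% and 28.6%, against 8.65% and 8.32% of all genes), with a median of -0.11. The study does not describe Snrnp70 and Syncrip of this list as linked to ALS. Taf15 (chromosome 11, 83473073 to 83506743), of the FET family, was at 62.8, 81.1 and 113 CPM in mid-light and 35.8, 46.6 and 61.8 CPM in mid-dark, without overlap (-0.80 ± 0.14, edgeR FDR 0.0116, called in all 12 fits). Hnrnpa2b1 fell by 0.34 ± 0.09 (FDR 0.0239, called in 7 of 12 fits, highest FDR 0.0620 without ZT16 replicate 1) and Snrnp70, of the U1 particle, by 0.56 ± 0.16 (FDR 0.0308, called in 5 of 12 fits, highest FDR 0.0835 without ZT8 replicate 3).

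In contrast, Hnrnpa1 rose by 0.43 ± 0.11 (edgeR FDR 0.0186, called in 9 of 12 fits, highest FDR 0.0540 without ZT16 replicate 1) and Atxn2, ataxin 2, by 0.33 ± 0.10 (FDR 0.0359, called in 5 of 12 fits, highest FDR 0.103 without ZT16 replicate 2). Hnrnpa1 was at 80.4 ± 8.53 CPM in mid-light and 108 ± 19.0 CPM in mid-dark (SD, n = 6), and Hnrnpa2b1 at 383 ± 41.9 CPM in mid-light and 301 ± 41.9 CPM in mid-dark. Splicing factors as a wider list of 78 genes had 6 higher and 21 lower members with a median of -0.08. This is 7.69% and 26.9%, beside 8.65% and 8.32% of all genes. Snrnp200 (0.74 ± 0.14, FDR 0.0117), Prpf19 (0.65 ± 0.14, FDR 0.0125) and Prpf8 (0.75 ± 0.18, FDR 0.0163), large core proteins of the spliceosome or its associated complexes, rose, whereas Hnrnpa0 (-0.41 ± 0.08, FDR 0.0117) and the small subunits Snrpf (-0.85 ± 0.21, FDR 0.0168) and Sf3b6 (-0.59 ± 0.15, FDR 0.0173) fell.

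**Figure D3:**
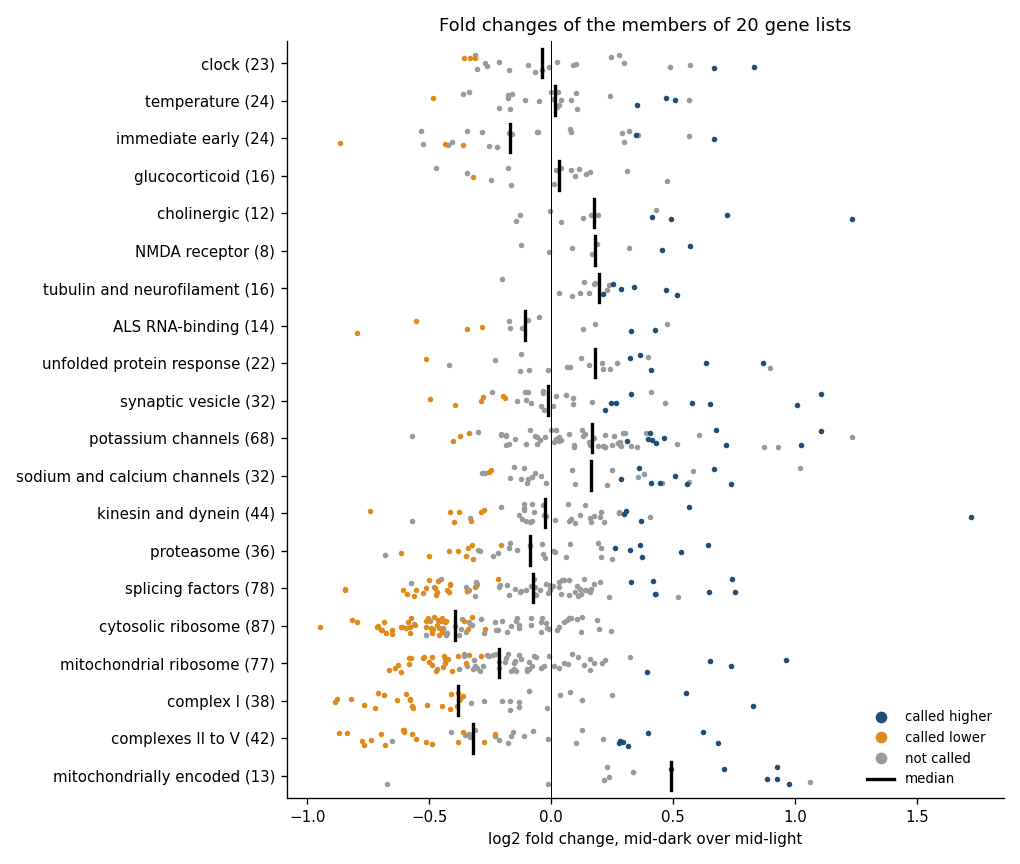
Log2 fold change of mid-dark over mid-light (horizontal axis) for each tested member of 20 gene lists (rows, with the number of members), blue where called higher, orange where called lower, grey where not called, with a black bar at the median. Medians ran from -0.39 for the cytosolic ribosome to 0.49 for mitochondrially encoded genes, and vertical scatter within a row has no meaning.

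Receptor and channel genes followed. Of 8 NMDA receptor genes, 2 rose (25%, against 8.65% of all genes) and 0 fell, with a median of 0.18. Grin1, the obligatory subunit, was at 220.5, 319 and 389 CPM in mid-light and 373, 469 and 599 CPM in mid-dark, with ZT8 replicate 1 and ZT4 replicate 3 above the lowest mid-dark library (0.57 ± 0.13, edgeR FDR 0.0140). Grina, an NMDA receptor-associated membrane protein, rose by 0.46 ± 0.09 (FDR 0.0120). Of 16 AMPA, kainate and metabotropic receptor genes, 1 rose and 1 fell, which is 12.5% beside 17.0% of all genes called. The gene that rose was Gria1 (0.34 ± 0.10, edgeR FDR 0.0280, called in 6 of 12 fits, highest FDR 0.0679 without ZT20 replicate 1).

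Of 68 potassium channel genes, 10 rose and 3 fell (median 0.17), which is 19.1% beside 17.0% of all genes called. Kcnc4 (1.11 ± 0.19, edgeR FDR 0.0116), Kcnip1 (0.71 ± 0.14, FDR 0.0117) and Kcnk1 (0.68 ± 0.15, FDR 0.0138), a fast voltage-gated channel, a channel-interacting protein and a two-pore leak channel, had the lowest p among those that rose. Kcna2, an axonal delayed rectifier, fell (-0.40 ± 0.09, FDR 0.0147), as did Kcnc2 (-0.34 ± 0.10, FDR 0.0314, called in 5 of 12 fits, highest FDR 0.0788 without ZT16 replicate 1) and Kcnd2 (-0.37 ± 0.12, FDR 0.0461, called in 4 of 12 fits, highest FDR 0.114 without ZT8 replicate 2). Kcna2 was also the most abundant of these 6, at 1218 ± 167 CPM in mid-light and 922 ± 103 CPM in mid-dark.

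Of 32 sodium and calcium channel genes, 8 rose and 2 fell (median 0.16), which is 31.2% beside 17.0% of all genes called. The accessory subunits Cacng2 (0.74 ± 0.17, edgeR FDR 0.0148), Cacnb3 (0.67 ± 0.16, FDR 0.0161) and Cacna2d3 (0.29 ± 0.08, FDR 0.0238, called in 6 of 12 fits, highest FDR 0.0689 without ZT8 replicate 3) had the lowest p among those that rose. The pore subunits Scn8a (-0.26 ± 0.06, FDR 0.0149, without overlap) and Cacna1g (-0.25 ± 0.07, FDR 0.0234, called in 9 of 12 fits, highest FDR 0.0537 without ZT8 replicate 3) fell.

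Of 32 synaptic vesicle genes, 8 rose and 6 fell (median -0.01), which is 43.8% beside 17.0% of all genes called. Sncg, gamma-synuclein, had levels of 125, 189.8 and 275 CPM in mid-light and 302, 404 and 559 CPM in mid-dark, without overlap (1.11 ± 0.19, edgeR FDR 0.0116). Napb, which recycles SNARE complexes, rose by 0.65 ± 0.16 (FDR 0.0176) and Syn2, a synapsin, by 0.26 ± 0.07 (FDR 0.0183, called in 11 of 12 fits, highest FDR 0.0538 without ZT16 replicate 1). Pclo, an active zone scaffold, fell by 0.40 ± 0.09 (FDR 0.0151).

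Of 44 kinesin and dynein genes, 5 rose and 7 fell (median -0.03), which is 11.4% and 15.9% beside 8.65% and 8.32% of all genes. The 2 light intermediate chains of cytoplasmic dynein differed in direction. Dync1li1 (chromosome 9, 114688831 to 114723788) was at 2.70, 10.2 and 19.8 CPM in mid-light and 13.8, 39.2 and 58.5 CPM in mid-dark (1.72 ± 0.44, edgeR FDR 0.0192, called in 10 of 12 fits, highest FDR 0.0518 without ZT16 replicate 2). Dync1li2 was more abundant, at 459 ± 87.1 CPM in mid-light and 345 ± 28.5 CPM in mid-dark (SD, n = 6), and fell by 0.41 ± 0.10 (FDR 0.0169). Dctn2 rose by 0.37 ± 0.10 (FDR 0.0226, called in 8 of 12 fits, highest FDR 0.0651 without ZT8 replicate 3) and Dynlt3 by 0.30 ± 0.08 (FDR 0.0263, called in 7 of 12 fits, highest FDR 0.0766 without ZT16 replicate 1). Dynll2 fell by 0.38 ± 0.08 (FDR 0.0135) and Klc1 by 0.29 ± 0.08 (FDR 0.0208, called in 10 of 12 fits, highest FDR 0.0518 without ZT20 replicate 1).

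Ribosomal protein genes were called in one direction. Of 87 cytosolic ribosome genes, 40 fell and 0 rose (edgeR), against 8.32% of all genes called lower, and the median was -0.39. Of 52 large subunit genes 21 fell (median -0.32) and of 35 small subunit genes 19 (median -0.44). Rplp2, of the ribosomal stalk, was at 202, 326 and 490.1 CPM in mid-light and 104, 167 and 237 CPM in mid-dark, with ZT4 replicate 1 below 2 mid-dark libraries, ZT16 and ZT20 replicate 3 (-0.95 ± 0.20, edgeR FDR 0.0125). Rps3a1 fell by 0.61 ± 0.14 (FDR 0.0148). Rpl22, the gene that carries the RiboTag allele, fell by 0.48 ± 0.12 (FDR 0.0164), with 108 ± 17.9 CPM in mid-light and 77.5 ± 12.7 CPM in mid-dark (SD, n = 6).

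As a share of library counts, the cytosolic ribosome genes took 1.85% to 2.53% in mid-light (median 2.05%) and 1.36% to 2.18% in mid-dark (median 1.64%), with the replicate 3 libraries of mid-dark within the mid-light range. Of 77 mitochondrial ribosome genes, 4 rose and 23 fell (median -0.21), which is 5.19% and 29.9% beside 8.65% and 8.32% of all genes. Mrpl20 fell without overlap (-0.64 ± 0.14, edgeR FDR 0.0125). Mrpl15 (-0.42 ± 0.09, FDR 0.0137) and Mrpl11 (-0.62 ± 0.14, FDR 0.0148) fell with overlapping arms. Mrps5 (0.74 ± 0.18, FDR 0.0152), Mrps27 (0.39 ± 0.10, FDR 0.0168) and Mrps22 (0.96 ± 0.24, FDR 0.0175, called in 11 of 12 fits, highest FDR 0.0507 without ZT8 replicate 3) rose.

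The respiratory chain is encoded by the nuclear and the mitochondrial genome. Of 38 nuclear genes of complex I, 22 fell and 2 rose (57.9% and 5.26%, median -0.38). Of 42 nuclear genes of complexes II to V, 18 fell and 7 rose (42.9% and 16.7%, median -0.32). Of 13 mitochondrially encoded genes, 6 rose (46.2%) and 0 fell (median 0.49). Over all genes 8.32% were called lower and 8.65% higher. ND4 (chromosome MT, 10167 to 11544), a membrane subunit of complex I, was at 85.1, 186 and 229.7 CPM in mid-light and 279, 312 and 412 CPM in mid-dark, without overlap (0.92 ± 0.18, edgeR FDR 0.0117). ND5 (0.97 ± 0.19, FDR 0.0117) and CYTB (0.88 ± 0.19, FDR 0.0133) rose likewise. Mitochondrial transcripts are not translated by tagged cytosolic ribosomes, and ND4 was at 4989 CPM in the input.

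Ndufa5 fell by 0.89 ± 0.21 (edgeR FDR 0.0148), with 325 ± 104 CPM in mid-light and 176 ± 56.8 CPM in mid-dark (SD, n = 6), and Ndufa1 and Ndufb7 fell by 0.71 ± 0.16 (FDR 0.0140) and 0.69 ± 0.16 (FDR 0.0147). These are accessory subunits of complex I. The exceptions were Ndufb2 (chromosome 6, 39592565 to 39599843), at 30.7, 37.0 and 47.3 CPM in mid-light and 54.2, 67.9 and 76.7 CPM in mid-dark (0.83 ± 0.12, FDR 0.00989), and Ndufa10 (0.55 ± 0.11, FDR 0.0120). The arms of Ndufb2 did not overlap.

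In the later complexes Cox5a (-0.78 ± 0.16, edgeR FDR 0.0120, without overlap) and Cox4i1 (-0.61 ± 0.14, FDR 0.0147) of cytochrome oxidase and Atp5g3 of ATP synthase (-0.57 ± 0.13, FDR 0.0145) fell. Atp5b, the catalytic beta subunit of ATP synthase, rose (0.68 ± 0.15, FDR 0.0138), with 968 ± 272 CPM in mid-light and 1553 ± 214 CPM in mid-dark (SD, n = 6). Cyc1 (0.62 ± 0.15, FDR 0.0164) and Uqcrc2 (0.30 ± 0.09, FDR 0.0284, called in 6 of 12 fits, highest FDR 0.0793 without ZT8 replicate 3) of complex III rose too. By complex, 1 of 4 genes of complex II, 3 of 9 of complex III, 6 of 12 of complex IV and 8 of 17 of complex V fell, and 0, 3, 0 and 4 rose. The shares of all genes called lower and higher were 8.32% and 8.65%.

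**Figure D4:**
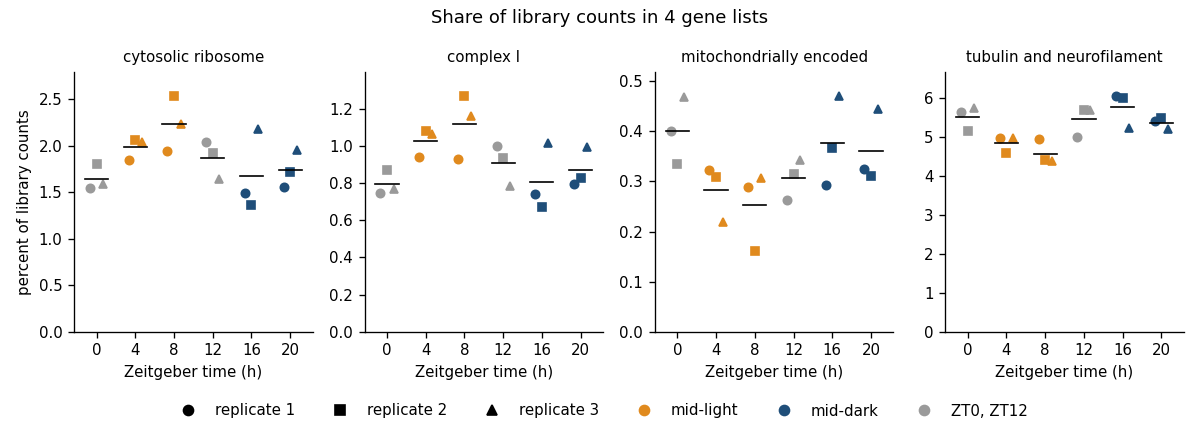
Percent of library counts (vertical axes, from 0) in 4 gene lists for each immunoprecipitate by Zeitgeber time, with a symbol for each replicate number, orange for mid-light, blue for mid-dark, grey for ZT0 and ZT12 outside the comparison and a bar for the mean of a time point. In these unscaled shares the arms did not overlap for tubulin and neurofilament genes (4.38% to 4.99% against 5.21% to 6.06%), whereas their TMM-scaled sums overlapped, and the cytosolic ribosome share overlapped.

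The ribosomal and respiratory genes are short, and the direction of calls varied with transcript length. Length was taken as the longest GENCODE M21 transcript of a symbol and was known for 13604 of 14176 genes (96.0%). Its median was 3383 nucleotides (nt) over all genes, 3485 nt over genes called higher and 2490 nt over genes called lower, and 1059 nt over the cytosolic ribosome genes. For the 13 mitochondrially encoded genes no length was matched. In the shortest quartile of genes 6.17% were called higher and 14.9% lower, with a median fold change of -0.10. In the next quartiles 10.6% and 7.00%, 11.0% and 5.83%, and 7.53% and 5.91% were called higher and lower. GC content also differed, at a median of 50.0% over all genes, 52.5% over higher and 49.4% over lower genes. The part of length and GC content in these results was not tested.

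**Figure D5:**
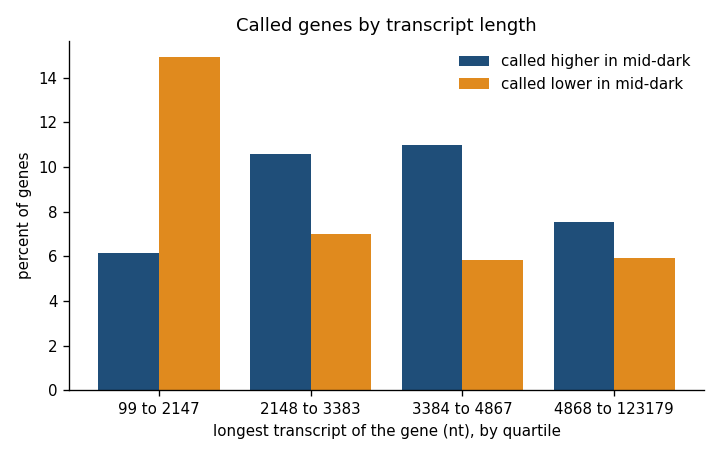
Percent of genes called higher (blue) or lower (orange) in mid-dark (vertical axis, from 0) in each quartile of transcript length (horizontal axis, in nt). The shortest quartile held 14.9% called lower and 6.17% called higher.

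Protein quality control genes included the next lists. Of 22 genes of the unfolded protein response, 5 rose and 1 fell (median 0.18), which is 22.7% and 4.55% beside 8.65% and 8.32% of all genes. Calr, calreticulin, was at 106, 167 and 193 CPM in mid-light and 193, 251 and 318 CPM in mid-dark, without overlap but nearly touching (0.64 ± 0.14, edgeR FDR 0.0138). Hspa5, the HSP70 of the endoplasmic reticulum (0.37 ± 0.09, FDR 0.0192, called in 10 of 12 fits, highest FDR 0.0551 without ZT8 replicate 3), and Xbp1, a transcription factor of the response (0.41 ± 0.13, FDR 0.0360, called in 3 of 12 fits, highest FDR 0.0870 without ZT8 replicate 3), rose. Atf4, of the integrated stress response, fell (-0.51 ± 0.12, FDR 0.0148).

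Of 36 proteasome genes, 6 rose and 9 fell (median -0.09), which is 16.7% and 25% beside 8.65% and 8.32% of all genes. Psmd6 (0.53 ± 0.11, edgeR FDR 0.0120) and Psmd14 (0.64 ± 0.15, FDR 0.0144) of the regulatory particle rose without overlap. Psmd9, an assembly chaperone (-0.61 ± 0.15, FDR 0.0168), and the core subunits Psmb10 (-0.50 ± 0.13, FDR 0.0174) and Psmb4 (-0.42 ± 0.11, FDR 0.0190, called in 10 of 12 fits, highest FDR 0.0508 without ZT8 replicate 3) fell. Of 25 cholesterol synthesis and uptake genes, Tm7sf2 rose (0.90 ± 0.29, FDR 0.0391, called in 4 of 12 fits, highest FDR 0.106 without ZT16 replicate 1) and Cyp51 fell (-0.30 ± 0.09, FDR 0.0318, called in 6 of 12 fits, highest FDR 0.0779 without ZT16 replicate 2). These 2 are 8% of the list, beside 17.0% of all genes called. Of 25 clustered protocadherins 0 passed (edgeR, with 1 at an unadjusted p under 0.05).

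Among called genes with a mean log2 CPM of at least 3, the 10 largest increases spanned 1.29 to 1.73. Suclg1 (chromosome 6, 73248505 to 73276907), a subunit of succinyl-CoA ligase of the citric acid cycle, led them, at 9.93, 28.3 and 50.5 CPM in mid-light and 57.4, 95.9 and 130.0 CPM in mid-dark, without overlap (1.73 ± 0.32, edgeR FDR 0.0117). Slc25a5, the mitochondrial ADP/ATP carrier (1.39 ± 0.24, FDR 0.0116), Cdc37, an HSP90 co-chaperone (1.41 ± 0.26, FDR 0.0117), Nr1h2, the oxysterol receptor LXR beta (1.34 ± 0.23, FDR 0.0116), Slc22a17, a lipocalin receptor (1.30 ± 0.28, FDR 0.0136), and Tmem63b, a mechanosensitive channel (1.29 ± 0.25, FDR 0.0117), did not overlap either. Abca2, a lipid transporter abundant in oligodendrocytes, rose by 1.33 ± 0.30 (FDR 0.0142). Dync1li1, given above, was second. For each of the 10 increases the input level lay above the mid-light mean. Input level and mid-light mean were 90.2 and 29.6 CPM for Suclg1, 203 and 50.0 CPM for Slc25a5 and 506 and 153 CPM for Slc22a17. These 10 genes were picked as extremes, and the share of all genes with this order of levels is not given here. The input was a single pooled library, and its relation to these changes was not tested.

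Serpina3n, a serine protease inhibitor induced in reactive astrocytes, was at 3.78, 12.2 and 18.7 CPM in mid-light and 17.1, 38.1 and 65.3 CPM in mid-dark (1.69 ± 0.35, edgeR FDR 0.0120). Lgals3bp, a galectin-binding glycoprotein, rose by 1.48 ± 0.36 (FDR 0.0163). Lcn2, lipocalin 2, fell outside the naming rule and is named after its values were seen because it was 1 of 3 genes under an FDR of 0.01, with Ndufb2 and Mettl7a1. Lcn2 was at 2.43, 4.97 and 5.84 CPM in mid-light and 9.00, 12.7 and 14.3 CPM in mid-dark (1.39 ± 0.20, FDR 0.00989), and its level in the input was 3.77 CPM. Mettl7a1, a lipid-associated methyltransferase-like protein, was at 7.01, 10.1 and 15.9 CPM in mid-light and 18.3, 24.9 and 28.8 CPM in mid-dark (1.21 ± 0.17, FDR 0.00989). The summed astrocyte markers also differed between the arms, as given above, and their part in these rises cannot be told apart from that of the arm.

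The 10 largest decreases were smaller, from -1.45 to -0.94, and 5 of them were predicted genes or pseudogenes. Gm14494 (-1.45 ± 0.48, edgeR FDR 0.0448, called in 5 of 12 fits, highest FDR 0.146 without ZT8 replicate 2), Gm10819 (-1.01 ± 0.25, FDR 0.0173), Gm5776 (-0.95 ± 0.28, FDR 0.0308, called in 4 of 12 fits, highest FDR 0.0850 without ZT8 replicate 2), all annotated as pseudogenes, Gm1673 (-0.94 ± 0.22, FDR 0.0148), annotated as protein coding, and the pseudogene Idi1-ps1 (-0.95 ± 0.26, FDR 0.0247, called in 8 of 12 fits, highest FDR 0.0647 without ZT8 replicate 3) were these, and reads shared with near-identical copies could make their levels uncertain. Gp1bb, a chain of the platelet glycoprotein Ib complex, was at 48.2, 84.9 and 179.8 CPM in mid-light and 26.3, 42.0 and 59.5 CPM in mid-dark (-1.21 ± 0.29, FDR 0.0157).

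Polr2l, a small subunit shared by the RNA polymerases, fell, with 119.8 ± 51.5 CPM in mid-light and 57.7 ± 17.0 CPM in mid-dark (SD, n = 6, -1.05 ± 0.25, edgeR FDR 0.0148). Pttg1, securin, fell by 0.97 ± 0.19 (FDR 0.0117) and Rpp25l, a ribonuclease P-related protein, by 0.95 ± 0.20 (FDR 0.0134). Rplp2 completed the list. For each of the 10 decreases the arms overlapped, and the input level lay below the mid-dark mean. Input level and mid-dark mean were 5.98 and 42.6 CPM for Gp1bb and 97.8 and 173 CPM for Rplp2. These 10 genes too were picked as extremes, without the share of all genes beside them. The relation of the input to these changes was not tested.

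ZT0 and ZT12 took no part in the comparison, and no test was made on their libraries. On the log2 scale the ZT0 mean lay nearer mid-dark than mid-light for 1212 of 1226 higher (98.9%) and 1151 of 1180 lower genes (97.5%). At ZT12 this held for 1036 (84.5%) and 884 (74.9%). Most calls thus set ZT4 and ZT8 apart from ZT0 and ZT12 too, and are not differences of dark from light alone. These genes share the same libraries and are not independent counts. The means of 3 libraries put Per2 at 4.80 CPM at ZT0 and 4.00 CPM at ZT12 and Chat at 56.7 CPM at ZT0 and 37.0 CPM at ZT12. Suclg1 was at 106 CPM at ZT0 and 70.1 CPM at ZT12, Hspa8 at 5423 CPM at ZT0 and 4827 CPM at ZT12 and ND4 at 405 CPM at ZT0 and 258 CPM at ZT12. Taf15, which was lower in mid-dark, was at 53.4 CPM at ZT0 and 58.1 CPM at ZT12, and Rplp2 at 151 CPM at ZT0 and 226 CPM at ZT12.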

How the data were processed

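Polyadenylated RNA of HA immunoprecipitates and 1 pooled input was sequenced from stranded libraries. The authors aligned reads to mm10 with STAR 2.7.5 and estimated expected counts per gene with RSEM, and they deposited these expected counts in 1 table of 50559 genes that holds no comparison columns. All columns belonged to a sample (0 did not).

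Expected counts of the 12 libraries were rounded to whole numbers. Genes were filtered with filterByExpr (14176 of 24404 with a count kept), scaled by TMM and compared in edgeR 4.0.16 (R 4.3.3) by its quasi-likelihood F-test for 2 arms of 6, without covariates, at an FDR of 0.05. The fit was tested on simulated data, with changes larger than most of those called here. Its counts were drawn independently, so the simulation does not cover variation that many genes share within a library. Alternatives used DESeq2 1.42.0, limma 3.58.1, other scalings and filters, a replicate block, marker sums and omission of libraries. Library totals ranged from 6302140 to 22406850 counts, and their part in the precision was not tested. Single values were compared by exact permutation tests (scipy 1.17.1).

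Named genes were, among called genes with a mean log2 CPM of at least 3, the 10 largest changes in each direction, the members of 9 lists, and up to 3 members with the lowest p in each direction of the other lists, apart from 3 genes not reported here. The comparison, members and lists were chosen with earlier results of these data known. Gene locations and promoters came from RefSeq (GRCm38.p6), matched by symbol, and transcript lengths from GENCODE M21.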

Additional observations from a re-analysis of the deposited data

Results flagged for a closer look

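Among 270 groups of 6 libraries 5 held a library far from the other 5 by Dixon's test, which chance alone gives in about 1 of 20 groups. Tsc22d3 was at 335 CPM in ZT16 replicate 2, the lowest of the mid-dark arm, with 419 CPM next to it. Sarm1 was at 79.9 CPM in ZT20 replicate 3, the lowest of mid-dark, beside 95.8 CPM. Pclo was highest in the same library, at 64.9 CPM beside 55.2 CPM. CYTB, encoded by the mitochondrial genome, was at 68.1 CPM in ZT8 replicate 2, the lowest of mid-light, beside 140 CPM. Hbb-bt was at 13.3 CPM in ZT16 replicate 3, the highest of mid-dark, beside 9.12 CPM.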

How the results depend on the processing

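Other tools, scalings and filters kept the counts within 1.5 times those reported (1226 higher and 1180 lower). Higher genes ranged from 1092 with a filter of 10 counts to 1631 with limma voom and quality weights, and lower genes from 984 with library totals to 1533 with limma voom. DESeq2 gave 1514 and 1483, and 2383 of the 2406 genes remained called, all with the same sign. Scaling to library totals gave 1300 and 984, so that 56.9% rather than 51.0% of calls were higher. Under voom Dbp changed sign (0.0059). At an FDR of 0.01 there were 3 higher and 0 lower genes (edgeR, 4565 at an unadjusted p under 0.05). With DESeq2, ZT4 and ZT8 differed at 1 gene.

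Leaving out 1 library at a time gave 426 to 1487 higher and 428 to 1423 lower genes, and leaving out all libraries of 1 replicate number gave 0 to 1174 and 0 to 1230. The calls fell by more than 1.5 times without ZT16 replicate 1 (456 and 428), ZT20 replicate 1 (684 and 630), ZT4 replicate 2 (643 and 696), ZT8 replicate 2 (624 and 570), ZT16 replicate 2 (435 and 452), ZT8 replicate 3 (426 and 430), all replicate 1 libraries (764 and 661) or all replicate 2 libraries (0 and 0). ZT4 and ZT8 differed at 0 to 5 genes, with 1 without ZT4 replicate 1 and 5 without ZT8 replicate 1. Nr1d1 ranged from -0.29 to 0.21 and Dbp from -0.19 to 0.080 over these fits. Nr1d1 was negative without ZT16 replicate 2 (-0.082), ZT4 replicate 2 (-0.032), ZT8 replicate 2 (-0.057), ZT8 replicate 3 (-0.0053) and all replicate 2 libraries (-0.29), and Dbp positive without ZT20 replicate 2 (0.035), ZT8 replicate 2 (1.8e-06) and all replicate 2 libraries (0.080). The cause was not tested.

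With the replicate number as a block, 1524 genes were higher and 1506 lower, and no named gene lost its call. Libraries that shared a number deviated together with r from -0.197 to 0.210 (median 0.072), over 0.1 in 7 of 18 pairs. For libraries with different numbers r ran from -0.286 to 0.259 (median -0.039), over 0.1 in 6 of 36 pairs. The labels name no pairing and none was assumed in the reported fit.

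With the summed astrocyte markers as a covariate, chosen after the data were seen, 0 genes were higher and 0 lower (edgeR, 592 at an unadjusted p under 0.05), and 39 of 133 named genes changed sign. Now negative were Dync1li1 -0.26, Serpina3n -0.045, Lgals3bp -0.38, Cdc37 -0.0086, Abca2 -0.12, Slc22a17 -0.27, Tmem63b -0.033, Nfil3 -0.039, Nr1d1 -0.49, Hsf1 -0.26, Jun -0.071, Slc18a3 -0.078, Ache -0.19, Grin1 -0.040, Tubb5 -0.025, Tubb4a -0.041, Tubb3 -0.0089, Atp8a2 -0.12, Tm7sf2 -0.27, Mrps27 -7.1e-05, Atp5b -0.023, Cyc1 -0.10, Prpf8 -0.14, Cacnb3 -0.011, Dctn2 -0.069 and Aldoc -0.015. Now positive were Gm14494 0.76, Gp1bb 0.29, Polr2l 0.0091, Gm10819 0.046, Gm5776 0.14, Bhlhe41 0.047, Hspe1 0.10, Cyp51 0.096, Rps3a1 0.031, Ndufa5 0.0046, Snrpf 0.13, Kcnc2 0.061 and Dync1li2 0.073. The part of sequencing depth in these calls was not tested.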
